A study of Mus musculus with 12 samples.

Results

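The nuclear genes of oxidative phosphorylation were followed in single cells of the mouse striatum at an early postnatal stage and at 3 months of age (3m). The set held every row of the count table whose symbol named a nuclear-encoded subunit of the respiratory chain or of ATP synthase (Nduf subunits, Sdha to Sdhd, Uqcr, Cox4 to Cox8 and Atp5), without symbols marked as pseudogenes. This gave 84 of 31053 genes, with 35 in complex I, 4 in complex II, 8 in complex III, 20 in complex IV and 17 in complex V. Ndufa4 and Ndufa4l2 were counted with complex IV, of which the Ndufa4 protein is a subunit. The 13 protein-coding genes of the mitochondrial genome served as the comparison. Membership was decided by symbol alone, but the set was chosen with earlier results of these data known.

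All animals were wild-type mice. The labels give the strain as mixed, while the methods of the study name C57BL/6Jax males as the source of brain tissue, and the difference could not be settled here. All cells came from dissected striatum and were enriched with magnetic beads against ACSA2, an antigen on the surface of astrocytes. The paper proposes that some of its astrocyte clusters, at both ages, may be astrocytes of neighbouring brain regions. The astroglia-like class used here was not split by region, so it can hold such cells. The 12 samples were sequencing runs of 4 libraries, 2 postnatal and 2 from mice aged 3 months, and the runs of a library were already merged. For preparations of this kind the study pooled several animals, so a library stands for a pool and not for 1 mouse, and p-values measure the spread between libraries. The labels disagree on the postnatal ages: for postnatal replicate 1 the title gives day 7 and the age tag day 3, and for postnatal replicate 2 the title gives day 3 and the age tag day 7. The paper speaks of day 3 alone for its early postnatal striatum. The postnatal libraries were therefore treated as 1 group. Each captured RNA molecule was counted once at its 3' end through a unique molecular identifier (UMI), so levels are given as UMIs per 1000000 UMIs of a sum (CPM) and are not scaled to transcript length.

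Oxidative phosphorylation takes place in the inner mitochondrial membrane. Complex I and complex II pass electrons from NADH and succinate to ubiquinone, complex III hands them to cytochrome c, complex IV reduces oxygen, and complex V uses the resulting proton gradient to make ATP. Most subunits are encoded in the nucleus and imported, whereas a few core subunits of complexes I, III, IV and V are encoded by mitochondrial DNA, so that building the chain needs products of both genomes. Astrocytes are known for high glycolytic activity, and they also hold a full respiratory chain.

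Cells with at most 10% mitochondrial UMIs and at least 500 genes were kept, which left 3163 of 4245 barcodes, with 6991930 to 11276224 UMIs a library. The mitochondrial limit removed 7.83% and 4.81% of the postnatal barcodes (replicates 1 and 2), and 20.2% and 34.2% of those at 3m. Marker genes placed 2977 cells in a class and left 186 unnamed. Astroglia-like cells numbered 392 and 566 in the postnatal libraries (replicates 1 and 2) and 318 and 307 at 3m (replicates 1 and 2), and 4 values are given in this order throughout. Their summed astroglial markers (among them Slc1a3, Aqp4 and Sox9) reached 9974, 7148, 22217 and 22826 CPM. Oligodendrocyte-like cells numbered 575 and 302 at 3m but had only 6 and 0 cells in the postnatal libraries. Mural-like cells, with markers of pericytes and smooth muscle, were present at both ages (21, 33, 62 and 51 cells), and endothelial-like cells were used at 3m (43 and 35 cells). Postnatal replicate 2 and 3m replicate 2 shared 95 cell barcodes, whereas no other pair of libraries shared more than 2.

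In astroglia-like cells the share of the nuclear genes in the transcriptome differed little between the ages, in a direction that turned with the choice of cells, and the mitochondrial genes took a larger share at 3m. The 84 nuclear genes held 3.11%, 3.13%, 3.11% and 2.91% of all UMIs, with means of 3.12% ± 0.0150 (SD, n = 2) postnatally and 3.01% ± 0.140 (SD, n = 2) at 3m. The 13 mitochondrial genes held 2.72%, 2.51%, 4.85% and 5.54%, with means of 2.62% ± 0.146 (SD, n = 2) and 5.19% ± 0.494 (SD, n = 2), a ratio of 1.98. These values depend on the limit of 10% on mitochondrial UMIs, since the difference of 2.58 percentage points became 4.28 when no such limit was set. Both 3m libraries lay above both postnatal libraries for the mitochondrial genes. The mitochondrial UMIs per nuclear UMI were 0.875, 0.803, 1.56 and 1.91, again without overlap. With 2 libraries an age, the exact two-sided permutation test gave p = 0.33 for each of these shares, the smallest value the design allows. The same libraries differed in other ways, since genes of cytoplasmic ribosomal proteins took 8.73%, 13.1%, 4.09% and 3.39% of the UMIs, and cycling genes 531, 1268, 36.2 and 279 CPM. The part of these differences in the result was not tested.

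**Figure D1:**
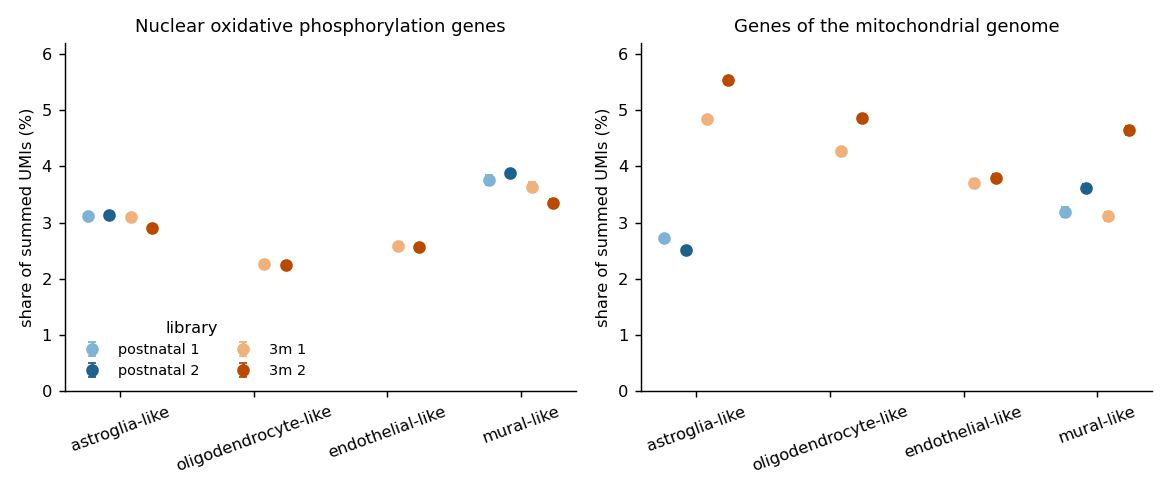
Share of summed UMIs (%) taken by the 84 nuclear genes (left) and the 13 mitochondrial genes (right) in each marker-gated class, with 1 point a library and exact 95% binomial intervals for counting error. In astroglia-like cells the nuclear share stays between 2.91% and 3.13% while the mitochondrial share goes from at most 2.72% postnatally to at least 4.85% at 3m.

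The complexes did not move alike in their share. Complex I took 0.983% of the UMIs on average postnatally and 1.03% at 3m, and complex II 0.0505% and 0.0562%. Complex III took 0.342% and 0.315%, complex IV 0.911% and 0.877%, and complex V 0.836% and 0.728%. Complexes II, III and V had no overlap between the ages, and for complexes I and IV the ages overlapped. On the mitochondrial side every complex was higher at 3m: the 7 genes of complex I held 0.688%, 0.653%, 1.18% and 1.40%, mt-Cytb of complex III 0.430%, 0.351%, 0.673% and 0.703%, the 3 genes of complex IV 1.21%, 1.14%, 2.24% and 2.55%, and the 2 genes of complex V 0.392%, 0.368%, 0.751% and 0.890%. Within single cells the median nuclear share was 3.12%, 2.81%, 3.15% and 2.87%, and the median mitochondrial share 2.63%, 2.00%, 4.62% and 5.79%. When only astroglia-like cells with 5000 to 15000 UMIs were used, a window chosen after seeing the data, the nuclear share was 2.85%, 2.65%, 3.08% and 2.76%, and the mitochondrial share 2.40%, 2.10%, 4.82% and 5.64%. Of the astroglia-like cells at 3m, 119 and 88 held no UMI of the oligodendrocyte markers. In cells without such UMIs the median depths were 8896.5, 11512, 4570 and 3774 UMIs, so the 3m cells were the shallower ones. Their nuclear share was 3.04%, 3.11%, 3.33% and 3.28%, with both 3m libraries on the higher side. Over all astroglia-like cells of a library, the rank correlation of the nuclear share with depth was -0.357, 0.103, -0.194 and -0.294. The part of depth in this difference was not tested. The sign of the nuclear difference thus turned in both selections, whereas the mitochondrial difference kept its sign. Across cells of a library the rank correlation of the nuclear with the mitochondrial share ran from -0.0432 to 0.476 in astroglia-like cells (307 to 566 cells, whose shares rest on the same UMI totals).

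Across single genes, 16 of the 78 nuclear members that passed the filter on low counts rose from the postnatal stage to 3m in astroglia-like cells and 1 fell (edgeR quasi-likelihood test, Benjamini-Hochberg adjusted p of at most 0.05 over 11777 genes). Of all genes tested, 19.5% rose and 18.2% fell, so the share of members that rose (20.5%) was near the background and the share that fell (1.28%) was below it. The study also asked for a log2 fold change of 1 or more in size, and by that rule 4 members rose and 0 fell, against 14.1% and 10.8% of all genes. At an unadjusted p under 0.05, edgeR had 25 members higher and 4 lower, against 24.9% and 23.9% of all genes. The median log2 fold change of the members was 0.27, against -0.01 over all genes tested. In cells without oligodendrocyte marker UMIs it was 0.49, against -0.044 over all genes, with 20 members higher and 1 lower of 78, against 13.7% and 12.1% of all genes. Scaling by library totals in place of TMM factors moved the median of all genes to -0.28 and that of the members to 0.00. A change of scaling shifts all genes by nearly the same amount. The distance of 0.28 between the 2 medians could thus hardly change, and its agreement is no separate evidence. The direction of the members themselves did not hold. CPM values below are per library total, and log2 fold changes use the TMM factors, so the 2 need not match. Under library totals 8 members rose, all of them among the 16, and 6 fell, namely Atp5e, Atp5g2, Cox7a2l, Ndufa1, Ndufv1 and Sdhd, against 14.2% and 28.6% of all genes.

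The mitochondrial genes moved further. In the same test 12 of the 13 rose, with a median log2 fold change of 1.36, and mt-Nd1 had a log2 fold change of 0.59 with an adjusted p of 0.0794. Under library totals their median was 1.09 and 12 rose. Leaving out 3m replicate 1 or 3m replicate 2 lowered the count to 5 or 4, and leaving out either postnatal library gave 13, with a median of 1.20 to 1.44 over these 4 fits. The genes of cytoplasmic ribosomal proteins went the other way, with 80 of 84 tested lower at 3m and a median of -1.24.

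**Figure D2:**
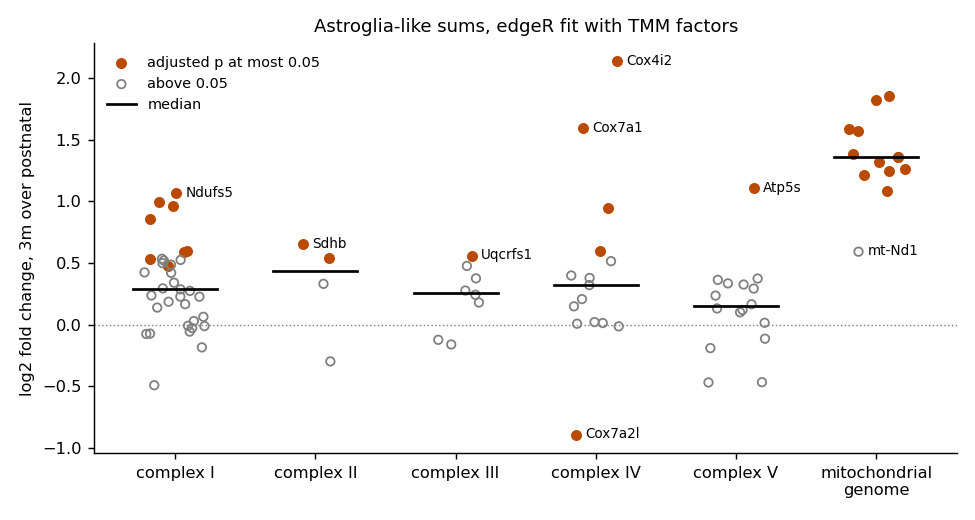
Log2 fold change (3m over postnatal) of each tested gene in astroglia-like sums, by complex and for the mitochondrial genes, with filled points for genes past the adjusted p of 0.05 and a line at each median. Most nuclear members lie close to their median of 0.27, Cox4i2 stands at 2.13, and the mitochondrial genes centre on 1.36.

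In complex I, the complex with the most members, 8 of 35 rose (22.9%, near the 19.5% of all genes), with a median log2 fold change of 0.29. Ndufs5, an accessory subunit of the membrane arm (chr4:123712710-123718202 on the minus strand, GRCm38), was counted at 384, 347, 654 and 614 CPM, so both 3m libraries lay far above the postnatal ones (log2 fold change 1.06, SE 0.18, adjusted p = 0.00723). Ndufs1, the largest core subunit of complex I and a carrier of iron-sulfur clusters (chr1:63143596-63176833, minus strand), was at 64.2, 61.7, 104.8 and 103.1 CPM (log2 fold change 1.00, SE 0.14, adjusted p = 0.00457). Ndufb10, an accessory subunit, was at 205, 192, 315 and 325 CPM and rose by 0.96 on the log2 scale. Ndufb3, another accessory subunit of the membrane arm, was at 163, 195, 274 and 265 CPM and rose by 0.86. In these 4 genes the replicates of an age lay close together and the ages did not overlap. Ndufa12, Ndufs7, Ndufa8 and Ndufv2 rose by 0.60, 0.59, 0.53 and 0.47. The members of complex I with the highest CPM, Ndufc2 and Ndufa13, had log2 fold changes of 0.53 and 0.50 and did not pass the test (adjusted p = 0.0656 and 0.0738, edgeR).

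Complex II, which also works in the citrate cycle as succinate dehydrogenase, had 2 of its 4 members higher at 3m. Sdhb, its iron-sulfur subunit, was at 195, 198, 279 and 232 CPM (log2 fold change 0.65, SE 0.16, adjusted p = 0.0246). Sdha, the flavoprotein, was at 117, 124, 133 and 157 CPM and rose by 0.54 on the log2 scale (adjusted p = 0.0343). In complex III 1 of 8 rose, Uqcrfs1, the Rieske iron-sulfur protein, at 229, 222, 271 and 281 CPM (log2 fold change 0.56, adjusted p = 0.03). The most abundant members of complex III, Uqcr11 and Uqcrh, had log2 fold changes of 0.28 and -0.12 and did not pass.

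In complex V 1 of 16 tested members rose, with a median of 0.15, the lowest of the 5 complexes. It was Atp5s, known as coupling factor B, a low gene at 10.4, 12.7, 18.9 and 22.7 CPM (log2 fold change 1.11, SE 0.24, adjusted p = 0.0144). Atp5e, the epsilon subunit and the most abundant member of complex V, was at 1039, 1103, 686 and 597 CPM. Its ages did not overlap, its log2 fold change was -0.47 with an adjusted p of 0.0975, and under library totals it passed at -0.74 (adjusted p = 0.0217, edgeR). The 3 genes for the c subunit of the rotor ring encode the same mature protein and differ in their import sequences. Of their joint UMIs, Atp5g2 held 48.7%, 50.2%, 41.0% and 42.0%, Atp5g3 25.8%, 25.6%, 31.7% and 32.2%, and Atp5g1 25.5%, 24.2%, 27.3% and 25.8%. The share of Atp5g2 was thus lower and that of Atp5g3 higher in both 3m libraries.

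Complex IV held the largest changes in both directions. Cox4i2, the alternative isoform of subunit 4 that is known for its link to oxygen supply (chr2:152754173-152765037, plus strand), was at 10.7, 20.2, 63.1 and 52.1 CPM (log2 fold change 2.13, SE 0.30, adjusted p = 0.00436). Its common counterpart Cox4i1 was at 1110, 1061, 1121 and 954 CPM with a log2 fold change of 0.21 (adjusted p = 0.452, edgeR). Cox4i2 made up 0.951%, 1.87%, 5.33% and 5.18% of the joint UMIs of the pair, so even at 3m it was the minor form. Cox7a1, the heart and muscle isoform of subunit 7a, was at 7.27, 4.68, 14.7 and 14.4 CPM and rose by 1.59 on the log2 scale. Cox6b2, best known from testis, was at 18.2, 24.2, 35.4 and 32.9 CPM and rose by 0.95, and its share of Cox6b1 and Cox6b2 went from 2.58% and 3.34% to 5.67% and 5.65%. All 3 are minor, tissue-restricted isoforms, and each had non-overlapping ages. Cox5a, a constitutive subunit, was at 430, 433, 540 and 541 CPM and rose by 0.60.

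Cox7a2l, a protein known to join complexes III and IV into supercomplexes (chr17:83501918-83517330, minus strand), was the member that fell. It was counted at 194, 288, 107 and 107 CPM and fell by 0.89 on the log2 scale (SE 0.20, adjusted p = 0.0181, edgeR). The postnatal replicates differed from each other more than the 3m replicates did, but both lay above 3m. Among the joint UMIs of Cox7a1, Cox7a2 and Cox7a2l, its share was 28.3%, 36.8%, 16.2% and 17.1%, and that of Cox7a2 70.6%, 62.6%, 81.6% and 80.6%. The most abundant members of the whole set, Cox8a at 1363, 1326, 1689 and 1492 CPM and Cox7c at 1375, 1410, 1223 and 1104 CPM, did not pass the test.

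**Figure D3:**
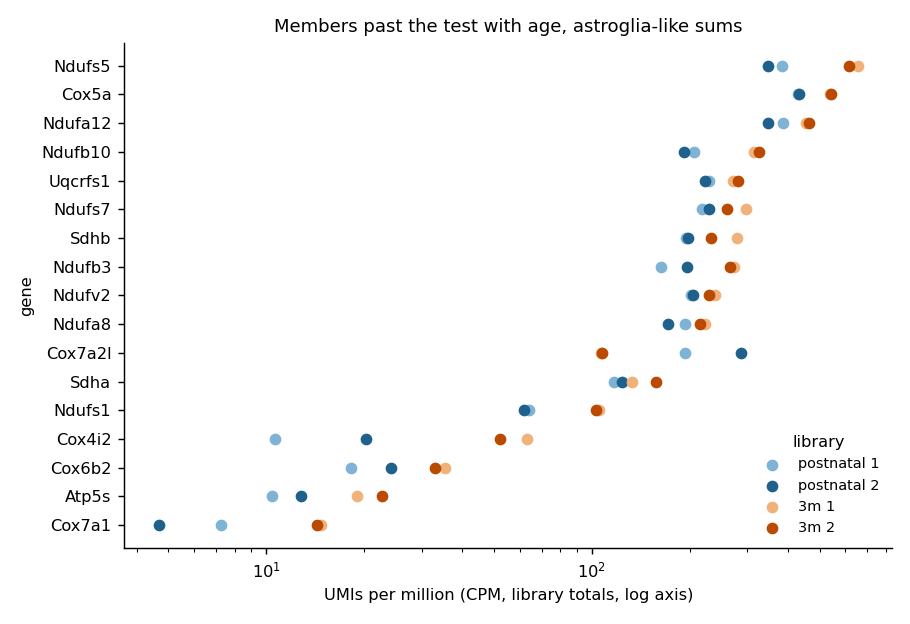
CPM in each library (log axis) of the 17 nuclear members past the test with age in astroglia-like sums, with 1 point a library. For Cox4i2 the postnatal libraries stand at 10.7 and 20.2 and the 3m libraries at 63.1 and 52.1, and Cox7a2l is the one gene with its 3m libraries on the lower side.

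The filter left 6 symbols out of this test. Cox7b2, Cox8b and Ndufa4l2 had mean levels of at most 3.38 CPM in astroglia-like sums. Cox6a2, Cox8c and Atp5o had 0 UMIs in all 4 sums, and a second row, Atp5o.1, was counted at 520, 536, 394 and 373 CPM. The 78 tested members ranged from 10.3 to 1468 mean CPM with a median of 366, and 69 of the 84 reached 100 CPM. Leaving out single libraries changed the count of members that rose. Without 3m replicate 1, Ndufs1 and Cox4i2 were the 2 that rose, and without 3m replicate 2, Cox4i2 and Ndufa4l2 were. Nothing is read from the call of Ndufa4l2, which was too low for the test on all libraries and passed the filter here with 23 UMIs in 3m replicate 1 against 2 in 3m replicate 2. Without postnatal replicate 1 it was 32 and without postnatal replicate 2 it was 26. Of all genes 6.92%, 5.44%, 24.5% and 19.4% rose in these fits, in the same order. Cox4i2 passed the test in all 4 of these fits. Markers of other cells were low but not absent in the astroglia-like sums: oligodendrocyte markers summed to 13.3, 13.8, 614 and 238 CPM with all 9 seen at 3m, mural markers to 126, 155, 340 and 138 CPM, and endothelial markers to 21.3, 18.7, 6.73 and 8.31 CPM. Oligodendrocyte-like cells held Cox4i2 at 2.77 and 1.61 CPM, below its level in astroglia-like cells, whereas mural-like cells held it at 396 to 1407 CPM.

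Other genes that serve the respiratory chain were taken from fixed lists, whose counts stand against the 19.5% and 18.2% of all genes that rose and fell. Of 47 assembly factors 10 rose and 1 fell, with a median log2 fold change of 0.18. Cox10 and Sco2, needed for the haem and copper centres of complex IV, rose by 1.47 and 1.48 on the log2 scale, and Ndufaf4, an assembly factor of complex I, by 1.04. Of 18 tested regulators of mitochondrial biogenesis 1 rose, the coactivator Ppargc1a at 0.81, and 2 fell, Gabpb1 by 0.97 and Yy1 by 0.56, with a median of 0.01. Of 16 genes of the citrate cycle and pyruvate dehydrogenase 5 rose and 0 fell (7 and 0 at an unadjusted p under 0.05, edgeR), with a median of 0.35, among them Idh3b at 1.12 and citrate synthase (Cs) at 0.68. Of 12 carriers and exchangers 2 rose, the phosphate carrier Slc25a3 at 0.86 and the porin Vdac2 at 0.52, and 2 fell, Ucp2 by 1.05 and Atpif1, the inhibitor of ATP synthase, by 1.28. Under library totals the medians of these lists were -0.09, -0.27, 0.08 and -0.07 in this order, against -0.28 for all genes. The counts that rose and fell, against 14.2% and 28.6% of all genes, were then 6 and 3 for the assembly factors, 1 and 3 for the regulators, 2 and 0 for the citrate cycle list and 1 and 3 for the carriers.

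The promoters of members that rose are shown because nuclear respiratory genes are known targets of NRF1, of ETS-family factors such as GABP, of YY1 and of CREB. RefSeq promoter sequences (GRCm38.p6) of 300 bases, from 250 before to 50 after the start, were found for 66 of the 84 members. A 9-letter NRF1 core (GCGCATGCG) on either strand was in 12.1% of the members, in 4.51% of the 9139 genes that were tested with age and had a promoter, and in 1.95% of all 27025 symbols. For a YY1 core (AAGATGGCG) the shares were 10.6%, 3.86% and 1.64%, for the cyclic AMP response element (CRE, TGACGTCA) 6.06%, 3.86% and 2.03%, and for an ETS core (CCGGAAG) 24.2%, 20.9% and 9.93%. Each promoter printed holds at most 1 match. Of the 16 members that rose, 13 had a promoter sequence, and the 4 shown are those with a match, 1 for each motif. The lines run 5' to 3' on the strand of the gene, and capitals mark the match.
Ndufa8, chr2:36049289-36049588, minus strand, NRF1 core on the opposite strand from base 242: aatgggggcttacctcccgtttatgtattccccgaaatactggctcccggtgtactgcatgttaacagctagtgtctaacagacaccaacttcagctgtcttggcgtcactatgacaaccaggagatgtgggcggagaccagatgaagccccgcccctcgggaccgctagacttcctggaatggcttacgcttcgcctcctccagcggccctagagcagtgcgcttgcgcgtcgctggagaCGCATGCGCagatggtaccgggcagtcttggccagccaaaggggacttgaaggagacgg
Ndufs7, chr10:80249199-80249498, plus strand, YY1 core from base 275: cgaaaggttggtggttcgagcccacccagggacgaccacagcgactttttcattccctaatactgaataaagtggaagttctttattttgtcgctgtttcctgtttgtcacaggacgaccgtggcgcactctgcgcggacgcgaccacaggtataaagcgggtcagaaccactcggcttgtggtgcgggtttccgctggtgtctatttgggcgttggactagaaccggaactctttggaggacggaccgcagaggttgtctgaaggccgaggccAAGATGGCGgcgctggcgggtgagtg
Sdhb, chr4:140961021-140961320, plus strand, ETS core from base 257: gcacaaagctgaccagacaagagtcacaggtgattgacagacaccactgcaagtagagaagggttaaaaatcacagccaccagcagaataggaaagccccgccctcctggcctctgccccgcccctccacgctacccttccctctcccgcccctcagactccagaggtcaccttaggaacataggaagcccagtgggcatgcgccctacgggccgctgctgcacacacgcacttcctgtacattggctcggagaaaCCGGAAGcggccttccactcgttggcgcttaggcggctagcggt
Uqcrfs1, chr13:30545267-30545566, minus strand, CRE from base 222: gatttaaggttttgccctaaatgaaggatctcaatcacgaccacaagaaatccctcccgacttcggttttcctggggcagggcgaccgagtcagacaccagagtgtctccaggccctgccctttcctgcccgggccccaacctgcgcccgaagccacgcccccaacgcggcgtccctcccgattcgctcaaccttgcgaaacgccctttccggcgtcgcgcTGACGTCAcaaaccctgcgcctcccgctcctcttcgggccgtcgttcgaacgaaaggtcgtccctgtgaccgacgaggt
A match describes these letters in this window and does not show that a factor binds there. Ndufa8, Ndufs7, Sdhb and Uqcrfs1 rose by 0.53, 0.59, 0.65 and 0.56 on the log2 scale.

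At 3m the classes differed in how much of the transcriptome the members took. The nuclear share was 3.01% ± 0.140 (SD, n = 2) in astroglia-like cells, 2.26% ± 0.0166 (SD, n = 2) in oligodendrocyte-like cells, 2.58% ± 0.0207 (SD, n = 2) in endothelial-like cells and 3.49% ± 0.208 (SD, n = 2) in mural-like cells. Oligodendrocyte-like cells thus reached 75.1%, endothelial-like cells 85.6% and mural-like cells 116% of the astroglia-like mean. The mitochondrial share was highest in astroglia-like cells, with 4.85% and 5.54%, followed by 4.28% and 4.87% in oligodendrocyte-like cells, 3.11% and 4.64% in mural-like cells and 3.70% and 3.79% in endothelial-like cells. The astroglia-like and oligodendrocyte-like values overlapped across libraries, while within each library the astroglia-like value was the higher one. In whole libraries, where the mix of cells differs between the ages, the nuclear share was 3.15%, 3.17%, 2.53% and 2.52%.

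The class comparisons below share the astroglia-like sums, so their results are set side by side and not counted as separate evidence. Ndufa4l2 and Cox6a2, too low for the test with age, entered these fits through other classes, so nothing is read from the calls of Ndufa4l2 below. In oligodendrocyte-like cells 42 of 80 tested members were lower than in astroglia-like cells of the same libraries and 2 were higher (edgeR with library as a term, adjusted p over 11073 genes). Of all genes 30.3% were lower and 30.2% higher, and the median log2 difference was -0.36 for the members and 0.00 for all genes. With the rule on size added, 10 were lower and 0 higher, against 22.8% and 16.6% of all genes, and 2 members were higher at an unadjusted p under 0.05, against 31.9% of all genes (32% lower). Over the 78 members that were also tested with age, without Ndufa4l2, 41 were lower and 2 higher. Under library totals 46 of 80 were lower and 2 higher, against 31.5% and 28.7% of all genes. Without 3m replicate 1 or 2, 15 and 14 were lower, against 24% and 20.9%. The lower members came from every complex, with 14 of 35 in complex I, 4 of 4 in complex II, 4 of 8 in complex III, 9 of 17 in complex IV and 11 of 16 in complex V. Of the mitochondrial genes 2 of 13 were lower and 1 was higher, with a median of -0.15, and leaving out 1 library gave 1 to 5 lower and 0 to 1 higher.

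Ndufa12, an accessory subunit of complex I, was at 181 and 172 CPM in oligodendrocyte-like cells and at 455 and 465 CPM in astroglia-like cells (log2 difference -1.33, SE 0.17, adjusted p = 1.22e-07, edgeR). Ndufc2 was at 301 and 318 CPM against 763 and 729 CPM, and Cox5a at 213 and 206 CPM against 540 and 541 CPM. Uqcrc1, a core protein of complex III, was at 100.4 and 81.4 CPM against 213 and 192 CPM, and Atp5g3 at 168 and 172 CPM against 342 and 317 CPM. In each of these genes both libraries of oligodendrocyte-like cells lay far below both of astroglia-like cells. Cox4i2 had the largest difference, 2.77 and 1.61 CPM against 63.1 and 52.1 CPM (log2 difference -4.61, SE 0.27). Cox7a2l, at 144 and 178 CPM against 107 and 107 CPM, and Ndufa3, at 554 and 496 CPM against 440 and 349 CPM, were the 2 that were higher. Of 16 citrate cycle and pyruvate dehydrogenase genes 14 were lower and 1 was higher, with a median of -0.86.

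In endothelial-like cells 51 of 80 members were lower and 5 higher, against 24.4% and 22% of all genes, with a median log2 difference of -0.64 against -0.13 for all genes. With the rule on size added, 16 were lower and 2 higher, against 21.2% and 17.9% of all genes. Without 3m replicate 1 or 2, 19 and 20 were lower, against 15.9% and 16.4%. Of the mitochondrial genes 10 of 13 were lower, 6 under library totals and 3 without 3m replicate 2. Ndufs1 was at 22.6 and 31.4 CPM against 104.8 and 103.1 CPM in astroglia-like cells (log2 difference -2.33, SE 0.33, adjusted p = 1.64e-06, edgeR). Sdhb had a log2 difference of -1.31, and Uqcrfs1 was at 110 and 165 CPM against 271 and 281 CPM. The 5 higher members were Cox4i2, Cox7a2l, Ndufa4l2, Ndufa7 and Uqcrb, or 4 without Ndufa4l2. Ndufa7, an accessory subunit of complex I, was at 831 and 782 CPM against 449 and 363 CPM, and Uqcrb, a ubiquinone-binding protein of complex III, at 720 and 601 CPM against 399 and 333 CPM. These sums were small, with 353952 and 254399 UMIs, and under library totals 24 members were lower and 8 higher, against 18.5% and 28.8% of all genes. Their mural markers summed to 6894 and 3809 CPM, against 41230 and 42673 CPM in mural-like cells, and the part of this in the values of Cox4i2 and Ndufa4l2 was not tested.

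In mural-like cells the largest differences from astroglia-like cells were in isoforms of complex IV. At 3m 5 members were higher and 17 lower, against 18% and 19.6% of all genes, with a median log2 difference of -0.23 that turned to 0.12 under library totals, where 14 were higher and 7 lower, against 25.2% and 14.6% of all genes. The medians of all genes were -0.11 and 0.20, so the members lay 0.12 and 0.08 below the median gene. Postnatally 10 were higher and 3 lower, against 15.8% and 16.2% of all genes, with a median of 0.18, and under library totals 19 were higher and 2 lower, against 16.6% and 15.5%. Without Ndufa4l2 the counts of higher members were 4 at 3m and 9 postnatally. With the rule on size added, 2 were higher and 4 lower at 3m, against 14.8% and 17.5% of all genes, and 2 higher and 2 lower postnatally, against 13.1% and 13.7%. Without 3m replicate 1 or 2, 4 members were lower at 3m, against 13.7% and 11.6% of all genes, and without postnatal replicate 1 or 2, 24 and 4 were higher postnatally, against 13.9% and 10.6%. Of the mitochondrial genes 11 were lower at 3m and 3 higher postnatally, and under library totals these counts were 4 and 4. Without 3m replicates 1 and 2 the count lower at 3m was 2 and 5, and over the 4 fits without 1 library the count higher postnatally ran from 0 to 5. Endothelial markers summed to 1010, 659, 1100 and 2026 CPM in these sums, with all 9 seen in each, and their part in the differences was not tested.

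**Figure D4:**
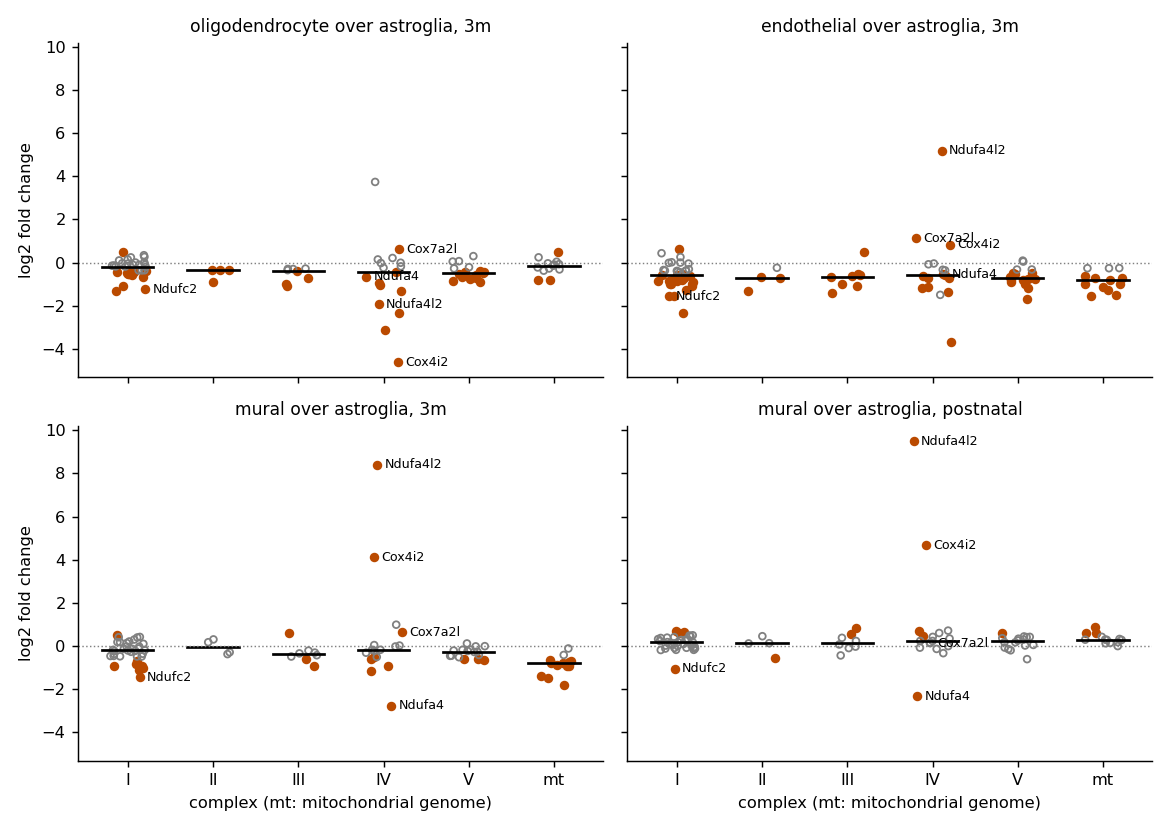
Log2 difference from astroglia-like cells of the same age for each tested member, by complex and for the mitochondrial genes, with 1 panel a comparison, filled points for genes past the adjusted p of 0.05 and a line at each median. The open point at 3.73 is Cox6a2, which had 0 UMIs in astroglia-like sums, so its fitted value is no measured fold. The points of Ndufa4l2 rest on 6, 14, 23 and 2 UMIs in astroglia-like sums, so nothing is read from them either. Members lie mostly below 0 in oligodendrocyte-like and endothelial-like cells at 3m (medians -0.36 and -0.64). They lie around 0 in mural-like cells, where Cox4i2 stands far above.

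The pair Ndufa4 and Ndufa4l2 was exchanged in mural-like cells. Ndufa4l2, whose expression is known to rise in hypoxia (chr10:127514967-127517154, plus strand), was at 1412, 1112, 2333 and 1876 CPM in mural-like cells and at 1.45, 1.64, 9.68 and 0.755 CPM in astroglia-like cells. The astroglia-like levels rest on 6, 14, 23 and 2 UMIs, so no fold is given. Ndufa4, a subunit of complex IV (chr6:11900292-11907497, minus strand), was at 94.9, 228, 146 and 140 CPM in mural-like cells and at 823, 810, 782 and 717 CPM in astroglia-like cells, with log2 differences of -2.33 (SE 0.25) and -2.76 (SE 0.26). Ndufa4l2 held 93.7%, 83.0%, 94.1% and 93.1% of the joint UMIs of the pair in mural-like cells and at most 1.22% in astroglia-like cells. A Ndufa4l2 UMI was seen in 100%, 100%, 98.4% and 98.0% of mural-like cells. The share was 0.348% and 0.662% in oligodendrocyte-like cells at 3m (median depths 9062 and 13180 UMIs) and 1.53%, 2.12%, 1.89% and 0.651% in astroglia-like cells (9258, 12129, 6035 and 8324 UMIs). Free RNA gives such UMIs also in cells that do not express a gene, and how much of these low shares it made up was not tested.

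Cox4i2 was also far higher in mural-like cells. It was at 508, 396, 1407 and 1189 CPM in mural-like cells, and it held 25.6%, 21.6%, 55.6% and 53.3% of the joint UMIs of Cox4i1 and Cox4i2. Cox4i2 was thus the larger part of the pair in mural-like cells at 3m and the smaller part postnatally. The log2 differences from astroglia-like cells were 4.66 (SE 0.20) and 4.13 (SE 0.16), and the change with age did not pass the test of a difference between the classes (log2 difference -0.54, SE 0.24, adjusted p = 0.211, edgeR). A Cox4i2 UMI was seen in 90.5%, 87.9%, 90.3% and 94.1% of mural-like cells and in 7.91%, 20.1%, 28.6% and 26.7% of astroglia-like cells. In oligodendrocyte-like cells of the 3m libraries, which were deeper, the share was 1.04% and 1.99%. Among astroglia-like cells those at 3m were the shallower ones and held a Cox4i2 UMI more often. The part of depth and of free RNA in these shares was not tested.

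**Figure D5:**
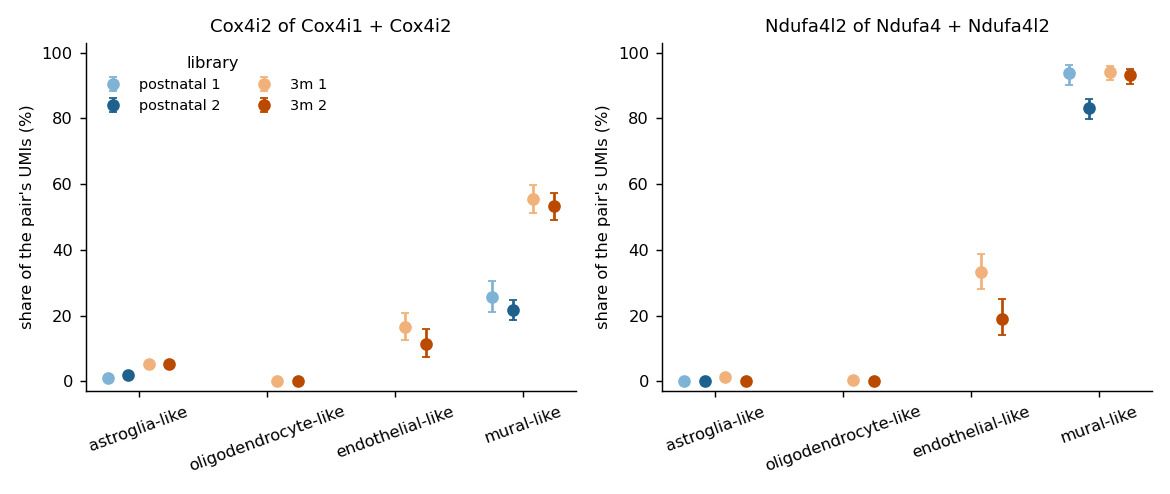
Share (%) of the joint UMIs taken by Cox4i2 (of Cox4i1 and Cox4i2, left) and by Ndufa4l2 (of Ndufa4 and Ndufa4l2, right) in each class, with 1 point a library and exact 95% binomial intervals that cover counting error only. In mural-like cells Ndufa4l2 takes 83.0% to 94.1% at both ages, and Cox4i2 goes from 25.6% and 21.6% postnatally to 55.6% and 53.3% at 3m.

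A few other members set mural-like cells apart. Ndufc2 was lower at both ages, at 313, 322, 368 and 340 CPM against 559, 687, 763 and 729 CPM (log2 differences -1.05 and -1.45). Uqcrb was higher at both ages, at 804, 686, 775 and 668 CPM against 408, 372, 399 and 333 CPM (0.85 and 0.61). Ndufs7, a core iron-sulfur subunit of complex I, was at 340, 401, 600 and 445 CPM against 217, 229, 296 and 260 CPM (0.67 and 0.53). Atp5b, the catalytic beta subunit of ATP synthase, was higher postnatally at 898 and 930 CPM against 518 and 606 CPM, and its difference at 3m was -0.01 (adjusted p = 0.978, edgeR).

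The change with age itself was compared between mural-like and astroglia-like cells. For 7 members the change was lower in mural-like cells and for 0 it was higher (edgeR test of the interaction, adjusted p over 11073 genes), against 3.79% and 2.94% of all genes. At an unadjusted p under 0.05, 30 members were lower and 0 higher, against 11% and 9% of all genes. With the rule on size added 6 were lower, against 3.63% and 2.75% of all genes in the lower and higher direction. Without 3m replicate 1 or without 3m replicate 2 the count of lower members was 0, and it was 22 and 4 without postnatal replicates 1 and 2, against 2.06%, 1.78%, 5.04% and 1.73% of all genes in this order. The median over the 80 tested members was -0.46 against -0.06 for all genes. Under library totals 3 members were lower and 0 higher, against 2.49% and 6.37% of all genes, and the median was -0.16, against 0.24 for all genes. Cox5b, a constitutive subunit of complex IV, was at 938, 817, 520 and 513 CPM in mural-like cells and at 509, 524, 575 and 551 CPM in astroglia-like cells (log2 difference of the changes -1.18, SE 0.25, adjusted p = 0.00355). Ndufs5 was at 513, 437, 482 and 400 CPM in mural-like cells against its rise in astroglia-like cells (-1.20, SE 0.26, adjusted p = 0.00453). Ndufs1, Ndufb10, Uqcrc1, Cox5a and Atp5k differed by -1.41, -1.18, -1.06, -1.01 and -0.87. For the mitochondrial genes 12 of 13 had a lower change with age in mural-like cells, with a median of -1.10. Under library totals 6 did, and without postnatal replicates 1 and 2 it was 12 and 3, and without 3m replicates 1 and 2 it was 1 and 4. The mitochondrial share of mural-like cells was 3.19%, 3.62%, 3.11% and 4.64%, with overlapping ages. The postnatal mural-like sums rest on 21 and 33 cells.

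Across the classes at 3m, 13 of 80 members (16.2%) were lower in oligodendrocyte-like, endothelial-like and mural-like cells alike than in astroglia-like cells, among them Ndufs1, Ndufs5, Ndufa12, Ndufa4, Ndufc2, Cox5a, Uqcr11 and Uqcrfs1. Of all 11073 genes tested, 11.7% were lower in all 3 classes and 5.25% higher in all 3. Cox7a2l was the 1 member higher in all 3. Since all 3 comparisons use the same astroglia-like sums, a value that stands apart in those sums enters each of them. Classes with a sum in 1 library an age had no test within an age. Oligodendrocyte precursor-like cells had a nuclear share of 3.36% in postnatal replicate 1 and 2.18% in 3m replicate 1, and microglia-like cells 2.01% in 3m replicate 1.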

How the data were processed

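Single-cell RNA was measured with 10x Chromium 3' v3.1 libraries of ACSA2-enriched striatal cells. The deposited values were raw UMI counts for each gene and barcode, in which the authors had merged the sequencing runs (4 and 2 postnatal, 4 and 2 at 3m). The submitters' processing notes name Cell Ranger, Seurat 3.1.1 and mm10. No sample column was left unused.

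Counts were filtered (at most 10% mitochondrial UMIs, at least 500 genes), and a cell was named from a class with at least 3 markers detected and a lead of 0.25 in mean log score. No doublet caller was run. UMIs were summed per library and class (at least 20 cells) and tested with edgeR 4.0.16 in R 4.3.3 (TMM, filterByExpr), over 4 astroglia-like sums for age and 15 sums with library as a term for classes. A gene was called at an adjusted p of at most 0.05. The study's rule also asks for a log2 fold change of 1 or more in size. Depth was 6991930 to 11276224 UMIs a library. Shares carry 95% Clopper-Pearson intervals for counting error only, and were compared by an exact permutation test. Gene positions come from GENCODE M21 (GRCm38, the same build as mm10), which gave 1 position for all members but Atp5o and Atp5o.1.

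Named were, for each complex, the 2 members with the highest CPM, the largest called change in each direction and comparison, called members against the majority, isoform groups and the mitochondrial genes. Further called or high members were named after their values were seen. The members, lists and tests were chosen with earlier results of these data known. DESeq2 1.42.0, other scalings, filters, gates, leave-outs and a replicate block were alternatives. The tests were tried on simulated data.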

Additional observations from a re-analysis of the deposited data

Results flagged for a closer look

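For 7 of 80 nuclear members the change with age was lower in mural-like than in astroglia-like cells (edgeR test of the interaction), and for 0 it was higher. Of all genes, 3.79% were lower and 2.94% higher. The log2 difference (change in mural-like minus change in astroglia-like cells) was -1.41 for Ndufs1, -1.20 for Ndufs5, -1.18 for Ndufb10, -1.18 for Cox5b, -1.06 for Uqcrc1, -1.01 for Cox5a and -0.87 for Atp5k. For 12 mitochondrial genes it was -0.94 for mt-Nd1, -0.95 for mt-Nd2, -1.21 for mt-Nd4, -1.75 for mt-Nd4l, -1.63 for mt-Nd5, -2.12 for mt-Nd6, -0.99 for mt-Cytb, -1.38 for mt-Co1, -1.04 for mt-Co2, -0.95 for mt-Co3, -1.10 for mt-Atp6 and -1.19 for mt-Atp8. All of these lie on the same side. Under library totals, however, the counts were 3 nuclear members and 6 mitochondrial genes, against 2.49% lower and 6.37% higher of all genes. With 1 library left out they ran from 0 to 22 and from 1 to 12. The comparison rests on 21, 33, 62 and 51 mural-like cells.

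Postnatal replicate 2 and 3m replicate 2 shared 95 cell barcodes, which were 11.4% of the barcodes of the former and 7.24% of those of the latter. Among the smaller members of shared barcodes, 46 were kept after filtering. Of these 8 were astroglia-like, 7 oligodendrocyte-like, 7 erythrocyte-like, 5 endothelial-like, 2 mural-like and 17 unnamed. Leaving out the smaller member of each shared barcode left 16 nuclear members higher and 1 lower with age in astroglia-like cells.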

How the results depend on the processing

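Of the values that answer a comparison, 142 alternatives left them close to the main value and 68 moved them. With library totals only, members higher and lower with age in astroglia-like cells numbered 8 and 6 (main 16 and 1), in endothelial-like cells 8 and 24 (main 5 and 51), in mural-like cells at 3m 14 and 7 (main 5 and 17), postnatally 19 higher (main 10), and in the interaction 3 lower (main 7). With the log2 rule on size the counts were 4 and 0 for age, 0 and 10 for oligodendrocyte-like, 2 and 16 for endothelial-like, 2 and 4 for mural-like cells at 3m, and 2 higher postnatally. DESeq2 gave 12 higher and 3 lower with age of 81 members, against 1663 and 1641 of 12773 genes. Without a filter it was 14 and 3 of 81, against 2595 and 3036 of 18697 genes. No filter gave 1 higher in oligodendrocyte-like cells, 3 in mural-like cells at 3m and 5 postnatally. With no mitochondrial limit, 1 was higher in oligodendrocyte-like and 3 in mural-like cells at 3m, and DESeq2 size factors gave 1 for oligodendrocyte-like cells. The cause was not tested.

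Leaving out each library in turn gave 2 to 32 higher and 0 to 4 lower with age, 0 to 5 and 14 to 59 for oligodendrocyte-like, 2 to 6 and 19 to 57 for endothelial-like, 2 to 7 and 4 to 33 for mural-like cells at 3m, 4 to 24 higher postnatally and 0 to 22 lower in the interaction. The lone library of an age is then assumed to vary like the others.

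The nuclear share difference (3m minus postnatal, percentage points) in astroglia-like cells was -0.115, and 0.0149 without cycling cells, 0.232 without cells holding oligodendrocyte markers, 0.172 in cells of 5000 to 15000 UMIs, -0.311 of UMIs neither mitochondrial nor ribosomal, and 0.0416 as a median over cells. The mitochondrial one was 2.58, and 4.28 with no mitochondrial limit and 2.99 in the depth window. Over all cells the nuclear one was -0.638, and -0.624 at 1000 genes or more, -0.597 of UMIs that are not mitochondrial, -0.972 of UMIs neither mitochondrial nor ribosomal, and -0.596 as a median. The mitochondrial one was 2.10, and 3.17 without the limit. In mural-like cells the nuclear one was -0.325, and -0.578 of UMIs neither mitochondrial nor ribosomal. The depth window was chosen after seeing the data.

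For 8 uncalled members listed here, the sign of the change with age turned in some settings. They are not all that turned. Of the 78 tested members, 61 had a positive log2 fold change with TMM factors and 40 under library totals. Ndufc1 (0.24 to -0.036) and Atp5l (0.12 to -0.15) are among the others. Of the 8 listed, the log2 fold change under library totals was -0.17 for Atp5g3, -0.064 for Cox4i1, -0.25 for Cox6a1, -0.26 for Cox7c and -0.12 for Ndufa4. Cox6a1 and Cox7c gave -0.036 and -0.042 with DESeq2, -6.6e-05 and -0.0011 at 1000 genes or more, and -0.045 and -0.052 with no filter. Atp5g1 and Cox6b1 gave 0.19 and 0.18 in the depth window, 0.093 and 0.0395 without cycling cells, and 0.14 and 0.11 without cells holding oligodendrocyte markers, where Uqcrh gave 0.044. Cox6b1 also gave 0.061 with no mitochondrial limit and 0.0038 with the stricter gate. Leave-outs ran from -0.12 to 0.14 for Cox6a1, -0.063 to 0.041 for Cox6b1 and -0.061 to 0.091 for Cox7c.

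With the replicate block, 13 members were higher and 1 lower with age, and 8 of the 13 mitochondrial genes were higher (main 12). No label pairs libraries of different ages. Those with the same replicate number also had the same count of runs (4 for replicates 1, 2 for replicates 2), and both replicates 2 shared 95 barcodes. Whether the numbers pair libraries was not tested. The deviations of same-numbered libraries from their age means correlated at 0.132. Mural-like sums of 21 to 62 cells limit what could be detected there.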

Other observations

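Cox6a2, the heart and muscle isoform of subunit 6a of complex IV (chr7:128205435-128206387, minus strand, GRCm38), was seen in microglia-like cells of 3m replicate 1. It held 20 of the 46 joint UMIs of Cox6a1 and Cox6a2 there (43.5%, exact 95% binomial interval 28.9% to 58.9%, counting error only), and 9 of 25 cells held a UMI of it. In astroglia-like cells it had 0 UMIs in all 4 libraries, and in oligodendrocyte-like cells 5 and 2 UMIs. The microglia-like sum comes from 1 library, so there is no replicate check, and the gene was named after its values were seen.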
